A study of Homo sapiens with 8 samples.

Results

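LNCaP-FGC, a line of prostate carcinoma cells that respond to androgen, was set against DU145 and PC3, carcinoma lines that grow without it. The comparison used 6 of the 8 arrays of the series, 1 methylation array and 1 expression array for each of the 3 cancer lines, and all of its members were chosen by cell line alone. LNCaP-FGC is a fast-growing clone of a line raised from a lymph node metastasis, DU145 came from a brain metastasis and PC3 from a bone metastasis. RWPE-1, prostate epithelial cells that are not cancerous and were immortalized with papillomavirus, is used only to show which side of a difference lies nearer to it. No androgen treatment or culture medium is given in the sources used here, and no line had a second array, so every difference below is described by its size, with no test and no replicate check. DU145 and PC3 are different lines and not replicates of a condition, and androgen response cannot be told apart from anything else by which LNCaP-FGC differs from both.

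Androgen acts through the androgen receptor, a nuclear receptor that binds DNA and drives the secretory programme of luminal prostate cells. LNCaP-FGC cells are known to express the receptor, and DU145 and PC3 cells to express little or none of it. Methylation of cytosines at CpG sites in promoters accompanies stable silencing of many genes in prostate carcinoma, and promoter CpG islands are mostly unmethylated in normal epithelium. The methylation array used here samples CpG sites mainly near promoters, and its beta value gives the fraction of a site's signal that is methylated, from 0 to 1.

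A level was available on all 4 methylation arrays at 27541 of 27578 CpG sites. Of 48803 expression probes, 31397 exceeded the median probe on at least 1 of the 3 cancer-line arrays and were compared, on the log2 scale of the authors' deposited normalized table. The tables pair neither probes nor sites with genes, so the androgen receptor, its targets and the lineage markers of each line were not analysed here, and the identity of the lines was taken from the labels. Several sites can belong to 1 promoter and several probes to 1 gene, so counts below are of sites and probes, not of genes. Without gene names a site could not be paired with the expression of its gene.

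A site or probe was taken to set LNCaP-FGC apart when LNCaP-FGC was higher than both DU145 and PC3, or lower than both, by at least 0.3 in beta or at least 2-fold in expression. The smaller of its differences from the pair is called its smaller difference below. LNCaP-FGC was set apart at 10.3% of sites and at 6.69% of probes.

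**Figure D1:**
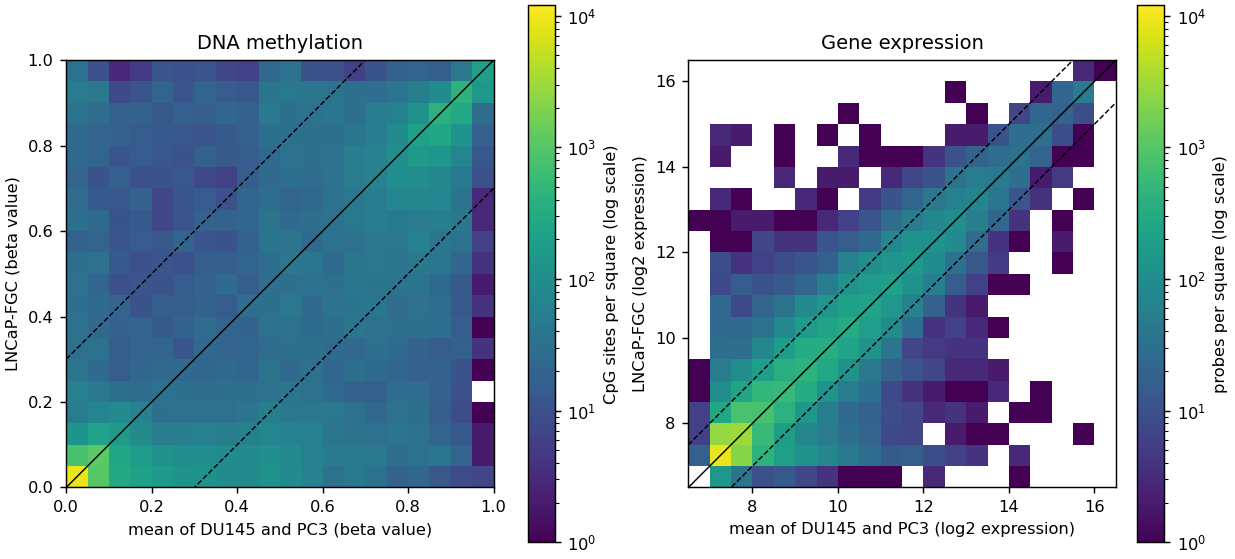
Each square counts CpG sites (left, beta values) or probes (right, log2 expression) by the mean of DU145 and PC3 on the x axis and the value in LNCaP-FGC on the y axis, with counts on a log colour scale. The solid line marks equal values and the dashed lines a difference of 0.3 in beta or of 1 on the log2 scale. The fullest squares of the left panel are in its lower left corner, unmethylated on both axes, and other sites spread over the whole plane, while probes stay nearer to the diagonal.

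In methylation, 1213 sites (4.4% of those compared) were higher in LNCaP-FGC than in both DU145 and PC3, and 1637 sites (5.94%) were lower. The sites higher in LNCaP-FGC were largely unmethylated in the other lines. Their median beta was 0.785 in LNCaP-FGC, against 0.0536 in DU145 and 0.0834 in PC3, and 0.0493 in RWPE-1. The sites lower in LNCaP-FGC had a median beta of 0.152 in LNCaP-FGC, against 0.851 in DU145 and 0.755 in PC3, and 0.597 in RWPE-1. The RWPE-1 median thus lay at the level of DU145 and PC3 for the first set and between the sides for the second. That second median was not the typical position of RWPE-1. By the distances given below, RWPE-1 was like neither side and between them at 205 (12.5%) of the 1637 sites.

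Which direction was the more frequent depended on the scaling of the arrays and on the size required. With betas as deposited, 42.6% of the sites that set LNCaP-FGC apart were higher in it, and after quantile normalization, which forces the 4 arrays to 1 distribution, 54.3% were. The counts were then 1466 higher and 1234 lower. Of the 1213 sites higher by the deposited betas 1210 were also among the 1466, and of the 1637 lower sites 1217 were among the 1234. Levels also differed somewhat between arrays at sites that were high, or low, in all 3 cancer lines. With 1 array per line, array scale and line cannot be told apart there. Over 2144 sites above 0.8 in all 3 cancer lines the median beta was 0.889 in LNCaP-FGC, against 0.922 in DU145 and 0.904 in PC3. Over 11038 sites below 0.1 in all 3 it was 0.0269 in LNCaP-FGC, against 0.0152 in DU145 and 0.0350 in PC3.

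**Figure D2:**
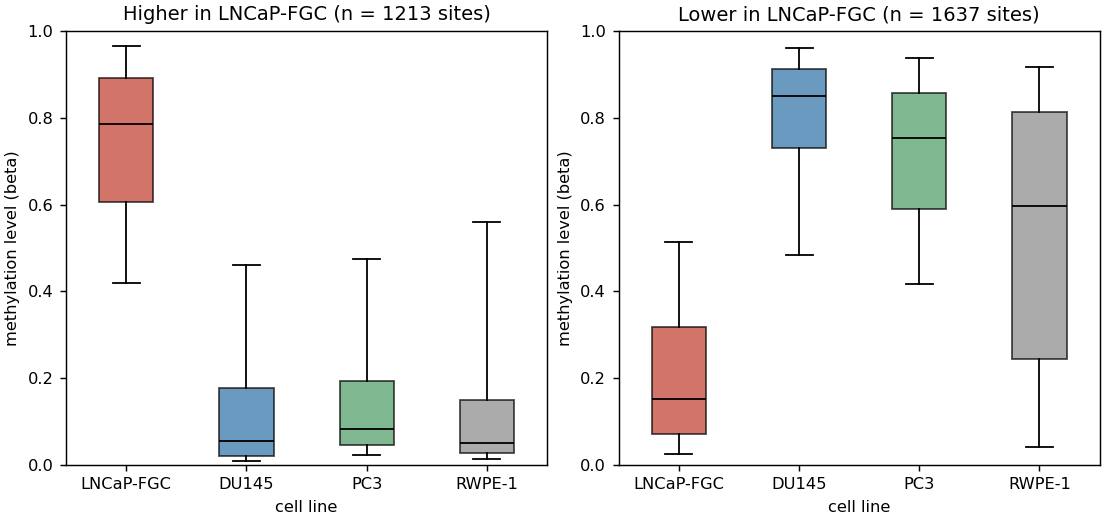
Methylation level (beta, y axis) in each line at the 1213 sites higher (left) and the 1637 sites lower (right) in LNCaP-FGC than in both DU145 and PC3. Boxes span the 25th to 75th percentile with the median as a line, and whiskers the 5th to 95th percentile over sites. The separation of LNCaP-FGC from DU145 and PC3 follows from how sites were chosen. RWPE-1 was not used in the choice, and its median is 0.0493 on the left and 0.597 on the right.

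Where LNCaP-FGC was the higher line, its level was about as often intermediate as methylated. Of the 1213 sites, 571 (47.1%) had a beta above 0.8 in LNCaP-FGC and 642 (52.9%) were intermediate, between 0.2 and 0.8. In DU145 944 of them (77.8%) and in PC3 924 (76.2%) were below 0.2. At the 1637 sites where LNCaP-FGC was the lower line, 979 (59.8%) were below 0.2 in LNCaP-FGC. In DU145 1054 of these sites (64.4%) were above 0.8, and in PC3 645 (39.4%) were. PC3 was therefore mostly intermediate where LNCaP-FGC was low, and it was the nearer of the pair to LNCaP-FGC at 72.4% of the lower sites and at 68.3% of the higher sites. The share of all sites at which PC3 was the nearer is not given here. Over all sites, LNCaP-FGC differed by at least 0.3 from DU145 at 22.1% and from PC3 at 16.3%. DU145 also had the most extreme median of the 3 at sites high, or low, in all of them.

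Classes of level were compared as well, without a difference threshold, so the sites counted are not the same as those above. DU145 and PC3 shared a class, unmethylated, intermediate or methylated, at 20494 sites (74.4%). Of 14085 sites unmethylated in both, 92.0% were unmethylated in LNCaP-FGC as well, 836 (5.94%) were intermediate and 285 (2.02%) were methylated. Of 3437 sites methylated in both, 62.4% were methylated in LNCaP-FGC, 1117 (32.5%) were intermediate and 176 (5.12%) were unmethylated. Unmethylated sites were thus more often alike across the 3 lines than methylated ones. A site close to 0.8 can change class by a small shift, and how many of the 1117 lay that close was not counted.

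At the 285 sites methylated in LNCaP-FGC alone among the cancer lines and unmethylated in DU145 and PC3, RWPE-1 was unmethylated at 243 (85.3%), intermediate at 41 and methylated at 1. At the 176 sites unmethylated in LNCaP-FGC and methylated in DU145 and PC3, RWPE-1 was methylated at 77 (43.8%), intermediate at 74 (42.0%) and unmethylated at 25 (14.2%). RWPE-1 itself was unmethylated at 65.3% of all sites compared, so an unmethylated RWPE-1 was the common state on this array. That share is not matched to the class of DU145 and PC3. At the 12964 sites unmethylated in all 3 cancer lines, RWPE-1 was unmethylated at 12839, a larger share than the 85.3%. At the 2144 sites methylated in all 3, RWPE-1 was methylated at 1570, a larger share than the 43.8%.

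The position of RWPE-1 was also read by distance. It was counted as like a side when it lay within 0.2 in beta of that side and not of the other. The side of DU145 and PC3 was taken as their mean, so RWPE-1 need not lie within 0.2 of both lines. Among the 1213 higher sites RWPE-1 was like DU145 and PC3 at 980 (80.8%), like LNCaP-FGC at 58 (4.78%) and like neither at 175 (14.4%). Among the 175, it lay beyond the mean of DU145 and PC3, with even less methylation, at 105. Among the 1637 lower sites RWPE-1 was like DU145 and PC3 at 858 (52.4%), like LNCaP-FGC at 510 (31.2%) and like neither at 269 (16.4%), of which 205 were between the sides. RWPE-1 was thus like LNCaP-FGC at a larger share of the lower sites than of the higher ones. At the 510 sites the median beta was 0.101 in LNCaP-FGC, against 0.790 in DU145 and 0.681 in PC3, and 0.133 in RWPE-1. That RWPE-1 lay near LNCaP-FGC and away from the pair there follows from how the 510 were chosen.

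With the size of the difference the share of higher sites at which RWPE-1 was like DU145 and PC3 grew, and that of the lower sites did not. It was 73.0% of 540 higher sites with a smaller difference of 0.3 to 0.5, 84.9% of 372 at 0.5 to 0.7 and 89.7% of 301 at 0.7 or more. For the lower sites it was 53.5% of 988, 50.1% of 479 and 52.4% of 170 over the same steps. The limits of the beta scale bear on these shares, since a difference of 0.7 or more leaves the low side at 0.3 or less.

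**Figure D3:**
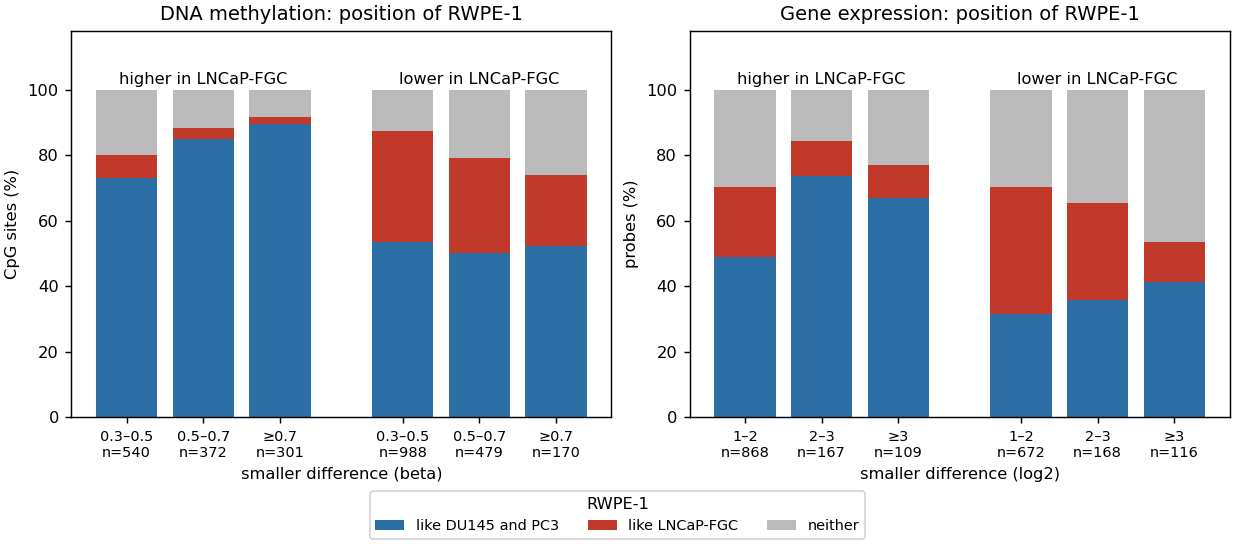
Share of CpG sites (left) and probes (right), in percent, at which RWPE-1 was like DU145 and PC3 (blue), like LNCaP-FGC (red) or neither (grey), by the size of the smaller difference, with higher and lower features apart and the number of features under each bar. Blue fills 73.0% to 89.7% of the bars of sites higher in LNCaP-FGC and 50.1% to 53.5% of those of lower sites. For probes it fills 48.8% to 73.7% where LNCaP-FGC was higher and 31.5% to 41.4% where it was lower.

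The largest differences ran from one end of the scale to the other. Site cg06819200 had a beta of 0.991 in LNCaP-FGC, against 0.00253 in DU145 and 0.0149 in PC3, and 0.00479 in RWPE-1. Site cg15980408 had 0.973 in LNCaP-FGC, against 0.00249 in DU145 and 0.0191 in PC3, and 0.0111 in RWPE-1. Both sites were thus methylated in LNCaP-FGC and close to unmethylated in the other lines, RWPE-1 included. In the other direction, cg07471052 had 0.0198 in LNCaP-FGC, against 0.973 in DU145 and 0.975 in PC3, and 0.659 in RWPE-1. Site cg02624705 had 0.00964 in LNCaP-FGC, against 0.987 in DU145 and 0.957 in PC3, and 0.0252 in RWPE-1. At the last of these RWPE-1 stood with LNCaP-FGC, and at cg07471052 it was intermediate. The 10 sites with the largest smaller difference had betas of 0.969 to 0.991 in LNCaP-FGC when it was the higher line, and in RWPE-1 9 of the 10 were like DU145 and PC3. When LNCaP-FGC was the lower line its betas were 0.00964 to 0.0513, and RWPE-1 was like DU145 and PC3 at 1 of the 10, with betas from 0.0252 to 0.957.

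Close to the threshold the choice was fine-grained. The smallest difference counted was 0.301 among higher sites and 0.300106 among lower ones, and the largest left out were 0.299923 and 0.299993. Within 0.1 of the threshold's own size, 106 higher sites lay inside and 106 outside, and 185 lower sites lay inside and 234 outside.

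Most sites that set LNCaP-FGC apart were ones on which DU145 and PC3 were close. The rule favours this, since both must lie on the same side of LNCaP-FGC, each at least 0.3 away. On a scale from 0 to 1 that limits how far apart the pair can lie, though it still allows large gaps. How much the choice of sites adds to the small gaps was not tested. The gap between DU145 and PC3 had a median of 0.0493 in beta at the higher sites and 0.103 at the lower ones, against a median smaller difference of 0.526 and -0.456. At 77.0% of the higher and 64.4% of the lower sites the gap was less than 33.3% of the smaller difference, a limit set after seeing the data. DU145 and PC3 differed by at least 0.3 at 16.3% of all sites. Against DU145 alone LNCaP-FGC was higher at 1936 sites and lower at 4149, and against PC3 alone it was higher at 2155 and lower at 2339. LNCaP-FGC was between the pair, by 0.3 from each, at 93 sites, 69 with DU145 as the higher of the pair and 24 with PC3. Its mean beta over all sites was 0.288, against 0.340 in DU145 and 0.302 in PC3, and 0.258 in RWPE-1.

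Room on the scale was unequal, since more sites were low than high in DU145 and PC3. Of 18468 sites at which both were at most 0.7, LNCaP-FGC was 0.3 higher at 6.57%. Of 8590 sites at which both were at least 0.3, it was 0.3 lower at 19.1%. The same count for DU145 set apart from LNCaP-FGC and PC3 gave 10.6% higher and 8.30% lower, and for PC3 set apart from LNCaP-FGC and DU145 it gave 2.92% and 10.7%.

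Each of the 3 cancer lines was then set apart in turn, to see where LNCaP-FGC differed from the other lines in this respect. At 0.3 in beta LNCaP-FGC stood apart at 2850 sites and DU145 at 2742 (9.96%), with PC3 at 1371 (4.98%). With 3 lines there are only 3 such counts, and the difference between LNCaP-FGC and DU145 is small and was not tested. The directions differed more. Of the sites that set the line apart, 42.6% were higher in LNCaP-FGC, 77.1% in DU145 and 38.4% in PC3, whereas on quantile-normalized betas the shares were 54.3%, 54.4% and 53.4%. At the largest differences the order of the lines held under both scalings for higher sites, and not for lower ones. At least 0.8 in beta separated LNCaP-FGC as the higher line at 174 sites (0.632%), DU145 at 85 (0.309%) and PC3 at 37 (0.134%), and on quantile-normalized betas the counts were 208, 56 and 40. As the lower line by 0.8, LNCaP-FGC had 58 sites (0.211%), DU145 80 (0.29%) and PC3 42 (0.152%), and on quantile-normalized betas 40, 88 and 46.

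**Figure D4:**
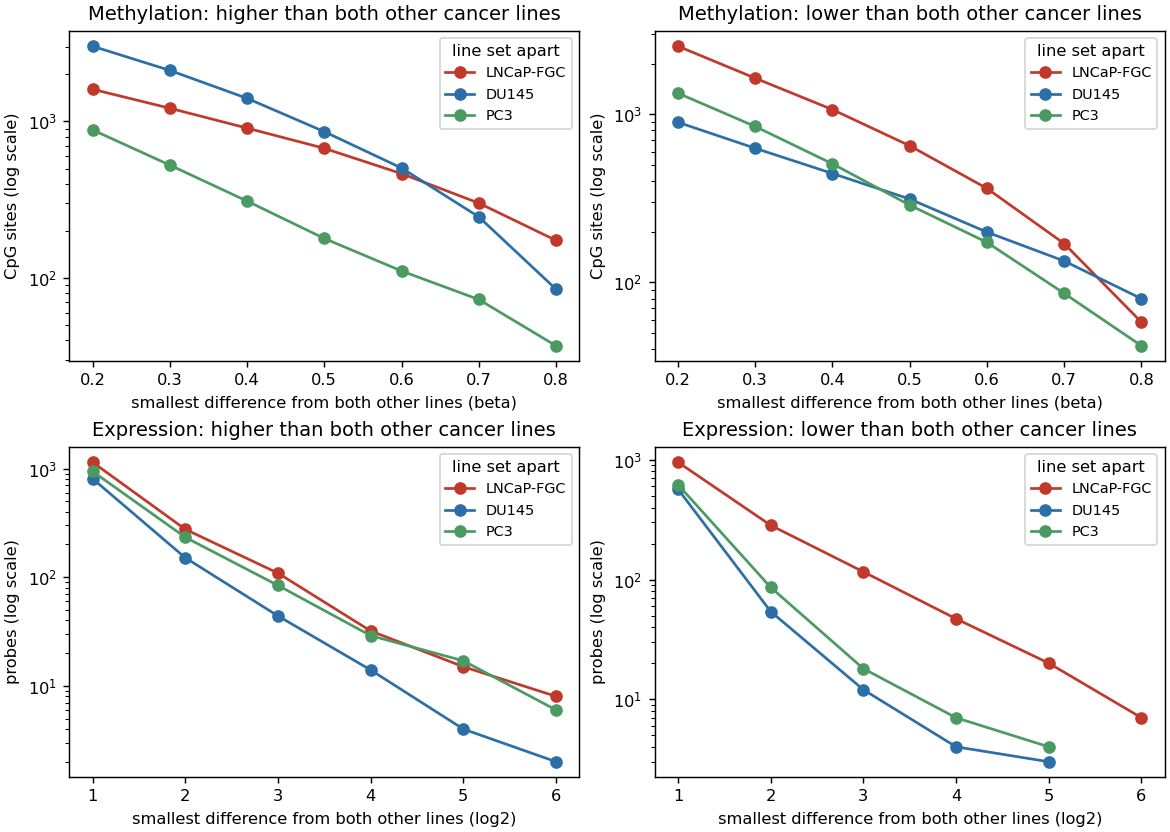
Number of CpG sites (top) and probes (bottom), on log axes, at which 1 cancer line was higher (left) or lower (right) than both other cancer lines by at least the size on the x axis, in beta or log2. LNCaP-FGC (red) has the most sites above both other lines from 0.7 upward and the most probes below both other lines at every size, 956 at a log2 difference of 1 and 284 at 2. Sizes with no probe are left blank.

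In expression, 1144 probes (3.64% of those compared) were at least 2-fold higher in LNCaP-FGC than in both DU145 and PC3, and 956 probes (3.04%) were at least 2-fold lower. The higher probes had a median log2 expression of 10.46 in LNCaP-FGC, against 8.20 in DU145 and 8.21 in PC3, and 8.78 in RWPE-1. Their median raw intensity was 1444 in LNCaP-FGC, against 292 in DU145 and 286 in PC3, and 397 in RWPE-1. The lower probes had a median log2 expression of 7.90 in LNCaP-FGC, against 10.29 in DU145 and 10.48 in PC3, and 9.74 in RWPE-1. Their median raw intensity was 243 in LNCaP-FGC, against 1293 in DU145 and 1566 in PC3, and 745 in RWPE-1. In both sets the RWPE-1 median lay between the medians of the sides, nearer to DU145 and PC3, which does not give its position at single probes.

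The balance of directions again depended on scaling and on the size required. At 4-fold, 49.3% of the probes that set LNCaP-FGC apart were higher in it. At 2-fold, 54.5% were higher in it, and 42.9% were when scanner intensities were instead only shifted to equal medians (870 higher, 1158 lower). With background correction and quantile normalization of the scanner intensities the counts were 1465 and 1268, and they included all 1144 higher and all 956 lower probes. The deposited values are not background-subtracted, which understates folds of dim probes.

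**Figure D5:**
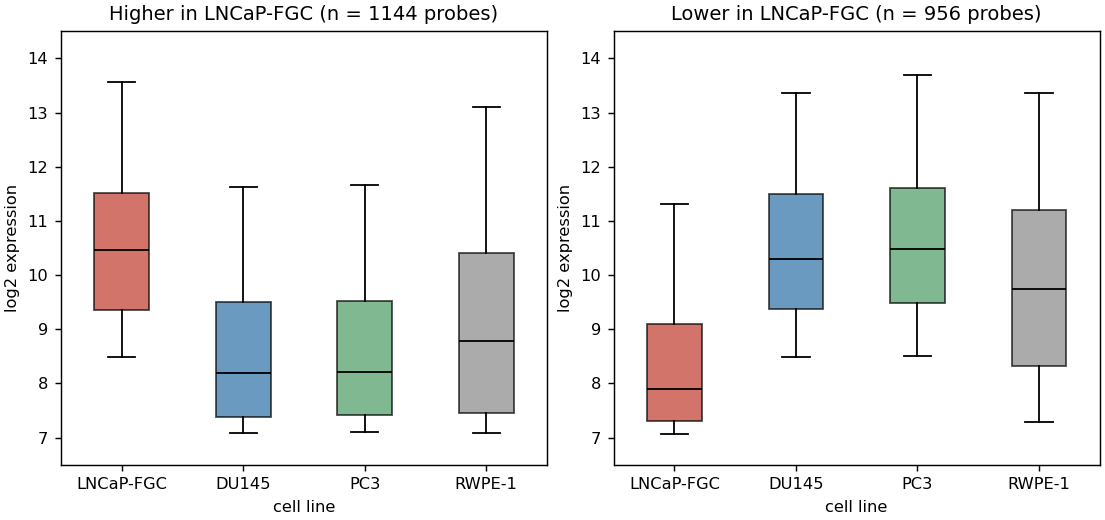
Log2 expression (y axis) in each line at the 1144 probes at least 2-fold higher (left) and the 956 probes at least 2-fold lower (right) in LNCaP-FGC than in both DU145 and PC3. Boxes span the 25th to 75th percentile with the median as a line, and whiskers the 5th to 95th percentile over probes. LNCaP-FGC is separated by the choice of probes, and the RWPE-1 boxes, which were not used in it, span 7.46 to 10.40 on the left and 8.33 to 11.20 on the right.

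Probes far below both other cancer lines were more numerous for LNCaP-FGC than for DU145 or PC3. At least 4-fold lower levels than in both other cancer lines were found at 284 probes in LNCaP-FGC (0.905% of those compared), 54 in DU145 (0.172%) and 86 in PC3 (0.274%). At least 4-fold higher levels were found at 276 in LNCaP-FGC (0.879%), 151 in DU145 (0.481%) and 233 in PC3 (0.742%). LNCaP-FGC also had the most lower probes with background-corrected intensities (418, against 103 in DU145 and 142 in PC3) and with equal array medians (320, against 69 and 68). For higher probes the order changed, since with equal array medians LNCaP-FGC had 246, DU145 144 and PC3 350. No test is possible with 1 array per line. Over all sizes from 2-fold, LNCaP-FGC stood apart at 2100 probes, DU145 at 1376 (4.38%) and PC3 at 1562 (4.97%).

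Part of these probes did not exceed the array median on the side with the lower level. The share of all compared probes that did not exceed it in LNCaP-FGC, DU145 or PC3 is not given here. The counts below are therefore not read as particular to these probes. Of the 956 lower probes, 290 (30.3%) did not exceed the array median in LNCaP-FGC, and their median raw intensity was 163 in LNCaP-FGC, against 599 in DU145 and 787 in PC3, and 355 in RWPE-1. For 65 of the 290 probes the raw intensity was above 1000 in both DU145 and PC3. Of the 1144 higher probes, 190 (16.6%) did not exceed the array median in DU145 or in PC3, with a median raw intensity of 477 in LNCaP-FGC, against 158 in DU145 and 137 in PC3. RWPE-1 was likewise at or below its median for 137 of the 190, and for 29.0% of all probes compared. No detection call accompanies the values, so folds at these probes have no defined background limit.

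RWPE-1 was counted as like a side when it was less than 2-fold from that side and not from the other. The side of DU145 and PC3 was again their mean, on the log2 scale, so RWPE-1 need not be that near to both lines. Among the 1144 higher probes it was like DU145 and PC3 at 620 (54.2%), like LNCaP-FGC at 215 (18.8%) and like neither at 309 (27.0%). Among the 956 lower probes it was like DU145 and PC3 at 320 (33.5%), like LNCaP-FGC at 324 (33.9%) and like neither at 312 (32.6%). RWPE-1 was thus like DU145 and PC3 at a larger share of the higher probes than of the lower ones. The remaining lower probes were not evenly placed. Of the 312, RWPE-1 was near both sides at 110, between them at 92, beyond the mean of DU145 and PC3 at 99 and beyond LNCaP-FGC at 11. Of the 309 higher probes, these counts were 134, 33, 61 and 81. At the 620 higher probes like DU145 and PC3 in RWPE-1 the median log2 expression was 10.17 in LNCaP-FGC, against 7.66 in DU145 and 7.74 in PC3, and 7.64 in RWPE-1. The nearness of RWPE-1 to the pair there follows from how the 620 were chosen. Where the smaller difference was at least 3 on the log2 scale, RWPE-1 was like DU145 and PC3 at 67.0% of 109 higher and 41.4% of 116 lower probes, and like LNCaP-FGC at 10.1% and 12.1%.

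The probe with the largest smaller difference among the higher ones, ILMN_1674097, had a log2 expression of 14.63 in LNCaP-FGC, against 7.18 in DU145 and 7.31 in PC3, and 7.18 in RWPE-1. Its raw intensity was 27151 in LNCaP-FGC, against 157 in DU145 and 148 in PC3, and 134 in RWPE-1, so it was among the brightest 1% of probes in LNCaP-FGC and below the array median elsewhere. ILMN_2233576 had 14.72 in LNCaP-FGC, against 7.20 in DU145 and 7.59 in PC3, and 7.17 in RWPE-1. All of the 10 probes with the largest smaller difference in this direction had raw intensities of 7710 to 31193 in LNCaP-FGC, against 133 to 183 in DU145 and 112 to 196 in PC3, and 119 to 162 in RWPE-1. High levels of these 10 were thus found on the LNCaP-FGC array and on none of the other 3.

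The lower probes with the largest smaller difference were of another kind. ILMN_2409167 had a log2 expression of 7.85 in LNCaP-FGC, against 15.80 in DU145 and 15.88 in PC3, and 15.26 in RWPE-1. Its raw intensity was 236 in LNCaP-FGC, against 60477 in DU145 and 61706 in PC3, and 32402 in RWPE-1, so a probe near the top of the other 3 arrays was dim in LNCaP-FGC. ILMN_1682717 had 7.26 in LNCaP-FGC, against 13.99 in DU145 and 14.18 in PC3, and 11.65 in RWPE-1. Over the 10 largest, the raw intensity was 134 to 455 in LNCaP-FGC, against 10109 to 60477 in DU145 and 11169 to 61706 in PC3, and 267 to 32402 in RWPE-1. RWPE-1 was like DU145 and PC3 at 2 of these 10.

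At the threshold, the smallest log2 difference counted was 1 and the largest left out was 0.99 in both directions. Within 0.1 of it, 172 higher probes lay inside and 202 outside, and 134 lower probes lay inside and 159 outside.

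The gap between DU145 and PC3 was smaller at the higher probes than at the lower ones. The pair was the dim side at the higher probes, with medians of 8.20 and 8.21, and the bright side at the lower ones, with 10.29 and 10.48. Values without background subtraction understate folds of dim probes, so the gaps were not measured on equal terms. What set them was not tested. The gap had a median of 0.25 on the log2 scale at the higher probes, against a median smaller difference of 1.43, and of 0.57 at the lower probes, against -1.51. Against DU145 alone, LNCaP-FGC was 2-fold higher at 2154 probes and lower at 2083, and against PC3 alone it was higher at 2152 and lower at 2160. DU145 and PC3 differed from each other 2-fold at 11.6% of probes. LNCaP-FGC lay between them, 2-fold from each, at 79 probes.

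The brightest 1% of probes on each array were mostly shared. Of the 488 such probes of LNCaP-FGC, 307 were also among the brightest 1% in both DU145 and PC3, and 52 (10.7%) were at least 2-fold higher in LNCaP-FGC than in both. Of the 488 in DU145, 30 (6.15%) were 2-fold higher than in both other cancer lines, and of the 488 in PC3, 64 (13.1%) were. One probe of the LNCaP-FGC set did not exceed the array median in either DU145 or PC3, and the corresponding count was 0 for DU145 and for PC3.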

How the data were processed

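Genomic DNA and total RNA of 4 cell lines were hybridised to Illumina methylation and expression beadchips, 1 array per line and assay, and samples were grouped by the cell line in the labels. The authors deposited beta values, fractions from 0 to 1, per the labels. The 37 sites with a blank on any array were left out. Scanner intensities were exported with BeadStudio (version 3.1.3) per the series text in the labels, and the lowest deposited intensities of 92.3 to 104 show no background subtraction. The main expression values are the log2 table that the authors deposited. Its 4 columns share a median of 7.37, as quantile normalization gives, and each correlated at 0.999 to 1.000 with the log2 scanner intensity of its own line, against at most 0.923 for another line. How it was made is not stated in the labels.

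Features were called by size alone, as defined in the report, with no test, since there is 1 array per line. The number of arrays limits the precision. Alternatives used limma 3.58.1 (normexp, offset 50, quantile), a common median, other filters and sizes, quantile-normalized betas, and each comparator line left out. The size rule was tested on simulated data. The rule for features to name gave the 2 identifiers with the largest smaller difference per direction and assay, as no table used here pairs identifiers with genes. Gene and marker lists could not be applied. Rules, lists and members were chosen with earlier results of these data known. Class counts, steps of size, room on the scale, dim and brightest probes, and the counts with DU145 or PC3 set apart were added after seeing the data.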

Additional observations from a re-analysis of the deposited data

How the results depend on the processing

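The size of the difference and the comparator lines moved most of the counts by over 1.5 times. The exceptions were the higher sites at 0.2 in beta (1603) and the lower sites without DU145 (2339). At 4-fold, 276 probes were higher and 284 lower in LNCaP-FGC than in both DU145 and PC3, and at 0.5 in beta 673 sites were higher and 649 lower, while at 0.2 the lower sites numbered 2536. Against 1 comparator line alone, 2152 to 2154 probes were higher and 2083 to 2160 lower, and 1936 to 2155 sites were higher and 2339 to 4149 lower, since a difference from 1 line is easier to meet than a difference from both. The mean beta difference from the pair, -0.0330, ran from -0.0519 without PC3 to -0.0142 without DU145. Every other setting for these counts (dim-probe filters, background correction, common median, quantile-normalized betas, log2(beta / (1 - beta))) stayed within 1.5 times. The share of features at which RWPE-1 was like DU145 and PC3 fell under narrower margins, by construction, to 45.0% of higher and 23.2% of lower probes (within 1.5-fold) and to 73.9% of higher and 46.1% of lower sites (within 0.15 in beta). On quantile-normalized betas, an alternative chosen after seeing the data, it was 74.1% of higher and 61.7% of lower sites, so the contrast between directions was smaller. With background-corrected intensities, also added later, it was 51.5% and 32.7% of probes. Differences at the 4 named probes kept their sign and were larger under background correction, at 8.10 and 7.78 where LNCaP-FGC was higher and -8.51 and -7.51 where it was lower. Most of these probes are near background on the low side, so the exact differences rest on the background handling and its offset of 50. The alternative probe per gene was not run, as probes had no genes. No paired analysis was possible because the labels give no replicate numbers and each line has 1 array per assay.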
